A study of Mus musculus with 12 samples.

Results

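Genes of the cell cycle and of DNA replication were followed in mouse liver from the fed state through 72 h without food. The members are the non-control array probes whose gene name begins with that of a cyclin, a cyclin-dependent kinase or its inhibitor, a Cdc gene, a subunit of the MCM or ORC complex, a replication polymerase or one of its helpers, E2F, Rb1, or a kinase or checkpoint protein of mitosis, and 1 matching gene is left out. They are 99 probes for 79 genes, among 20280 probes of which 9196 carry a gene name. All 99 passed the filter on dim signals. Of the 79 names, 60 were current, 18 were brought up to date through a synonym, and 1 (Ccng, cyclin G) is kept as the files give it. E2f1 and the Gadd45 genes are not analysed here, since no probe used carries those names.

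Male FVB mice, 6 weeks old, either had chow throughout or were without it for 12, 24 or 72 h, and livers were taken in the morning. Each of the 4 groups has 3 two-colour oligonucleotide arrays. An array carried Cy3-labelled RNA pooled from 2 livers of 1 group beside a Cy5-labelled pool of 6 fed livers, which was the same reference on all 12 arrays. The labels number these 6 livers like the ones on the fed arrays, so that the fed arrays compare fed livers with a pool of the same animals. All mice were kept in metabolic cages, and the labels have an infrared lamp from 24 h on, so that warming and time without food cannot be told apart. Values below are log2 ratios of sample over reference, and a fold change is the difference of 2 group means on that scale. Each array is a pool, so that the p-values measure the spread between pools and not between mice.

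A dividing cell passes through a G1 phase, in which D-type cyclins with Cdk4 inactivate the Rb protein and release E2F factors, which switch on the genes of DNA synthesis. Origins of replication are loaded beforehand with the ORC and MCM complexes and Cdc6, and cyclins E and A with Cdk2 fire them. Cyclins A and B with Cdk1 then drive mitosis, which the Bub and Mad proteins hold until all chromosomes are attached. Most hepatocytes of an adult liver are quiescent and re-enter the cycle after loss of tissue, whereas in bulk RNA fewer cycling cells and less RNA per cell cannot be told apart.

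A minority of the member promoters carried an E2F word, and these are shown because E2F is the factor that the Rb pathway releases. The 250 bases before the transcription start were searched on both strands for 4 E2F words, TTTCCCGC, TTTCGCGC, TTTGCCGC and TTTGGCGC. They occurred in 14 of 80 promoters of the 67 members that the table of RefSeq promoters (GRCm38.p6) holds, or 17.5%, and in 1.86% of all 32851 promoters of the table. The 13 genes with such a word were Cdc6, Mcm5, Mcm6, Mcm7, Orc1 and Orc3 of origin licensing, Cdc25a, Cdk1 and Cdk2, the replication genes Pola1, Pole4 and Rfc3, and E2f3. A match is a description of the sequence and not of binding. The stretches around a word, from RefSeq, run 5′ to 3′ on the strand of the gene with the word in capitals (on the opposite strand it reads as its reverse complement).

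Mcm6 (chr1:128359724-128359773, minus strand): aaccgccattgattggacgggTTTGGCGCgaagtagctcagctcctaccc
Mcm5 (chr8:75109335-75109384, plus strand): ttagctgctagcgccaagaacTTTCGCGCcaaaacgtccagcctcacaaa
Mcm7 (chr5:138172020-138172069, minus strand): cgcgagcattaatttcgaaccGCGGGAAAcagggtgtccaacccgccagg
Orc1 (chr4:108579406-108579453, plus strand): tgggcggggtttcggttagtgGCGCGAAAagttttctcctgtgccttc
Cdc6 (chr11:98907992-98908041, plus strand): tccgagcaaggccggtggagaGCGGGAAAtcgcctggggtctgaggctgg
Cdk1 (chr10:69353015-69353064, minus strand): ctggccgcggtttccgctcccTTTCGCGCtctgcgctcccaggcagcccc
Cdc25a (chr9:109875491-109875540, plus strand): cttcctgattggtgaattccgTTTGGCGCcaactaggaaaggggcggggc

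Mitotic genes often carry CCAAT boxes and a TTTGAA element (CHR) in place of E2F words. CCAAT was the more widely shared word and stood in 55% of the member promoters and in 33.8% of all, and TTTGAA in 17.5% and 16%. The forkhead word GTAAACA, read by factors that act in fasting liver, stood in 2.5% of the member promoters and in 3.17% of all. Ccnb2 and Top2a, whose values are given further on, hold 3 CCAAT boxes each in the 100 bases before the start, and Top2a a TTTGAA element as well, all in capitals on either strand.

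Ccnb2 (chr9:70421555-70421654, minus strand): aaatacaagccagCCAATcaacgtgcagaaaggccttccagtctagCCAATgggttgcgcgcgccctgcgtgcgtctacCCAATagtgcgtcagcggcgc
Top2a (chr11:99024190-99024289, minus strand): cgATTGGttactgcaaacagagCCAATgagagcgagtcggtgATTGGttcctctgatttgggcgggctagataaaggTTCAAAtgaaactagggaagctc

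Before any member is compared, 2 arrays stood apart. On replicate 2 of the 12 h group and replicate 3 of the 24 h group the sample signal was 4.72 and 3.5 times the local background, the lowest of the 12 arrays, which otherwise ranged from 5.34 to 10.6. On that 12 h array 27 member probes lay more than 1 log2 unit from the reference, against 0 to 4 on the other arrays. Over the members these low-signal arrays correlated with each other (r = 0.52) and with the remaining arrays between -0.37 and 0.19, whereas the other 12 and 24 h arrays correlated with each other at 0.69 or more. Over all tested probes the lowest correlation between 2 arrays was -0.29. The images of the low-signal arrays and of fed replicate 1 were quantified on the same day, those of the other fed arrays and all 72 h arrays on another day, and those of the remaining 12 and 24 h arrays on yet another. Without the low-signal arrays, the quantification day and the step from fed to 12 or 24 h therefore cannot be told apart. On fed replicates 2 and 3 respectively, 21 and 9 of the member spots were missing, and a value is then given for the arrays that have it.

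**Figure D1:**
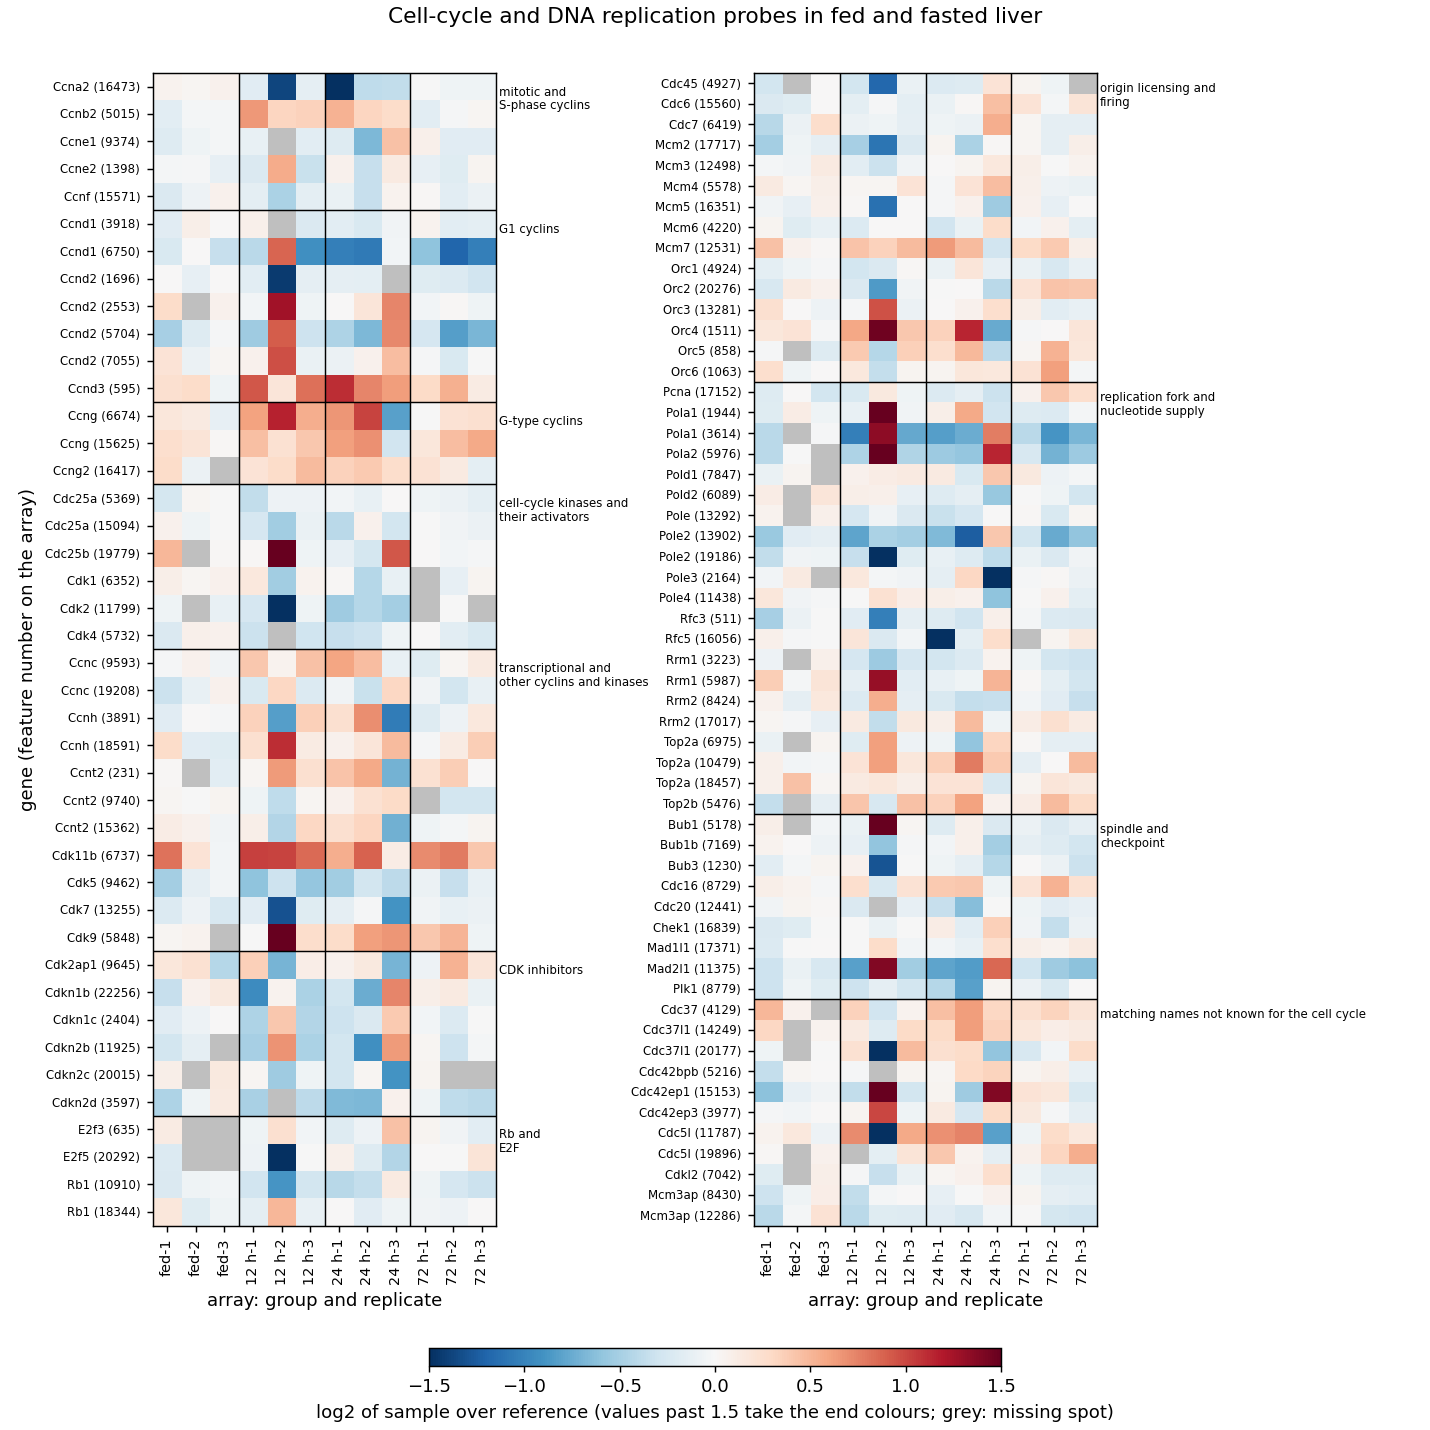
Log2 ratio of sample over reference for 98 of the member probes (rows, by role, with the feature number on the array) on the 12 arrays (columns, by group and replicate); blue is lower and red higher than the reference, and grey marks a missing spot. The column of replicate 2 at 12 h holds most of the strong colours, with 27 member probes at least 1 log2 unit from the reference. Each 24 h column has 4 such probes, and the fed and 72 h columns are pale.

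With all 12 arrays no member passed the test at any time, and the members as a whole were centred on the fed level. To be called, a probe had to differ by at least 1.4-fold with an adjusted p under 0.05 in limma (Benjamini-Hochberg, over the whole array). Of 99 probes 0 were called at 12, 24 and 72 h against fed, where 0.00497%, 0.00497% and 0.00996% of all probes tested were called. The smallest adjusted p among the members was 0.956, 1 and 1. At an unadjusted p under 0.05 there were 2, 6 and 1 member probes, or 2.02%, 6.06% and 1.01%, beside 3.92%, 3.04% and 1.55% of all probes. The median log2 fold change of the members was -0.03, 0.03 and 0.00, beside -0.01, 0.00 and -0.01 over all probes. The members extended from -0.64 to 0.72 at 12 h, from -0.83 to 0.67 at 24 h and from -0.75 to 0.54 at 72 h, and 46, 55 and 48 of them were above 0. For 69, 76 and 76 of the 99 probes the 95% interval of the fold change lay within 2-fold in either direction, and for the remainder it reached beyond 2-fold. All 4 groups shared 1 spread per probe in the fit, so the low-signal arrays entered the 72 h intervals and standard errors too. Without those arrays the interval lay within 2-fold for 94, 91 and 98 probes. With all 12 arrays, members that differed by at least 1.4-fold whatever their p were 15.2%, 9.09% and 2.02%, beside 12.8%, 6.73% and 5.92% of all probes.

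**Figure D2:**
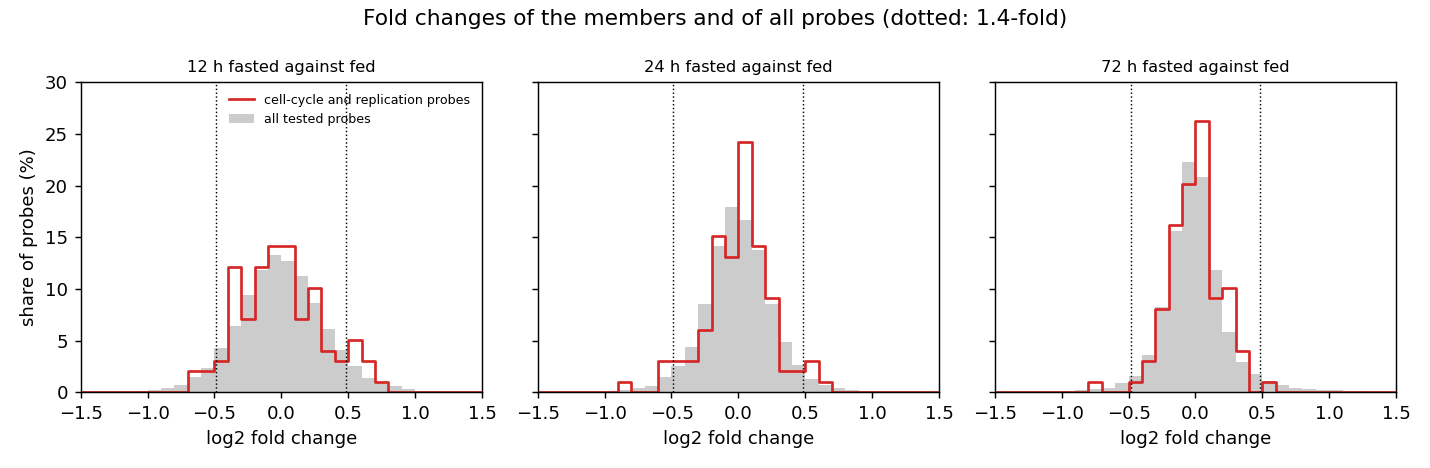
Share of probes (vertical axis, percent) by log2 fold change against fed (horizontal axis) at 12, 24 and 72 h, for all tested probes in grey and the 99 members as a red line, with 1.4-fold marked by dotted lines. The members lie over the bulk of all probes at each time, with medians of -0.03, 0.03 and 0.00.

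The count of calls depended on the low-signal arrays. Without them, 3 members were called at 12 h, 13 at 24 h and 0 at 72 h, where 2.59%, 8.81% and 0.836% of all probes were. For the members these counts are 3.03%, 13.1% and 0%. The 3 at 12 h were all higher than fed, and of the 13 at 24 h, 9 were higher and 4 lower. In this fit 19, 34 and 11 members had an unadjusted p under 0.05, or 19.2%, 34.3% and 11.1%, beside 21.9%, 30.4% and 13.3% of all probes. With the quantification day as a block in place of leaving arrays out, 16, 10 and 0 members were called, against 22.4%, 11.5% and 0.0199% of all probes. This block takes the 12 and 24 h differences from the low-signal arrays against fed replicate 1, and of the 3 and 13 calls above, 1 (Cdc5l) and 2 (Cdc5l and Mad2l1) were called again, each in the opposite direction. With arrays weighted by their quality, 11, 14 and 3 members were called, where 9.53%, 10.5% and 4.11% of all probes were. When the 72 h group was set against only those 2 fed arrays that share its day, 0 members were called, where 0.0469% of all probes were.

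**Figure D3:**
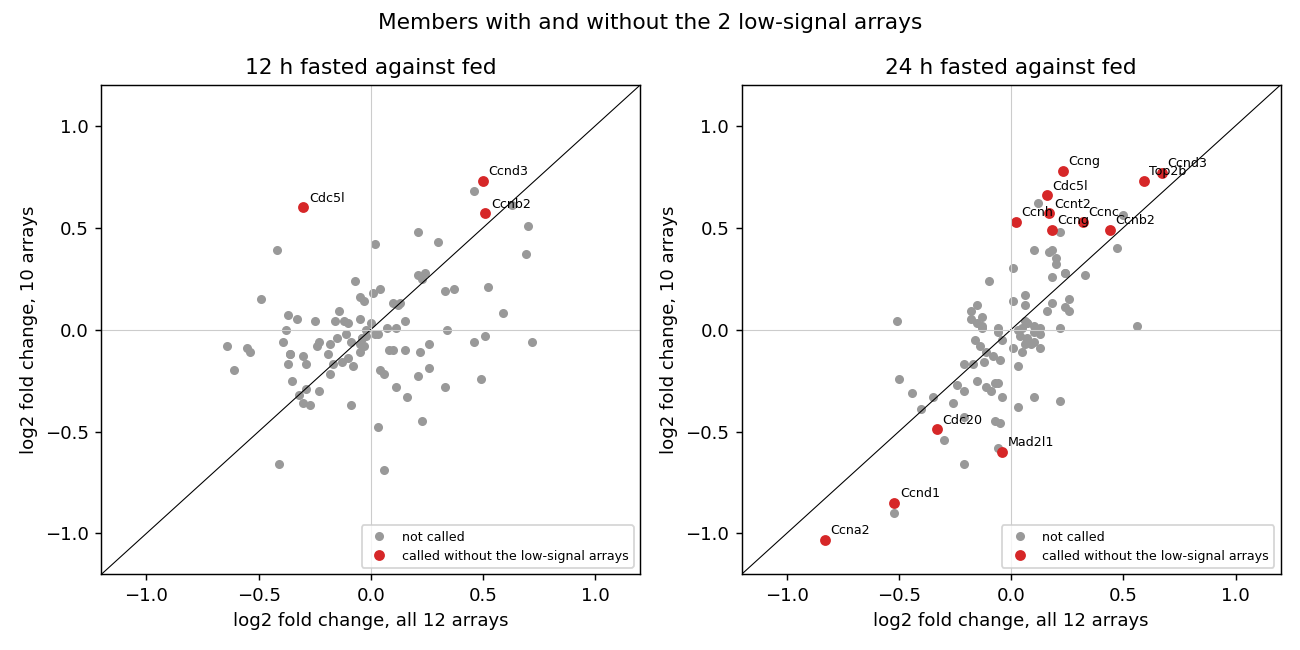
Log2 fold change against fed of each member probe with all 12 arrays (horizontal axis) and without the 2 low-signal arrays (vertical axis), at 12 h (left) and 24 h (right); the line marks equal values, and red points with names are the probes called without those arrays. The 3 named probes at 12 h and 9 of the 13 at 24 h lie above 0 on the vertical axis, and Cdc5l at 12 h lies on opposite sides of 0 in the 2 fits.

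Among the G1 cyclins, the D-type cyclins that bind Cdk4 and Cdk6 when growth factors are present, none was called over all arrays. Ccnd3 read above fed on every 24 h array, and 1 probe of Ccnd1 below fed on every 72 h array. Ccnd3 stood at 0.24, 0.27 and -0.06 on the fed arrays and at 0.93, 0.18 and 0.83 after 12 h. At 24 h it read 1.11, 0.73 and 0.63, and at 72 h 0.29, 0.53 and 0.12. All 24 h arrays thus lay above all fed arrays, the 12 h low-signal array lay among the fed ones, and the 72 h values overlapped with fed. The difference from fed was 0.50 ± 0.23 (SE) at 12 h, 0.67 ± 0.23 at 24 h and 0.17 ± 0.23 at 72 h, and the 95% intervals were 0.00 to 1.00, 0.17 to 1.17 and -0.33 to 0.66 (limma adjusted p = 0.956, 1 and 1). Without the low-signal arrays Ccnd3 rose 1.66-fold at 12 h (limma adjusted p = 0.0434) and 1.71-fold at 24 h (adjusted p = 0.02). With the day as a block the differences were 0.08 and 0.25, so that the call rests on arrays quantified on a day with no fed array.

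Ccnd1, the cyclin that hepatocytes raise when they leave quiescence, has 2 probes that disagreed. The brighter probe (feature 3918) stayed between -0.23 and 0.09 on all 11 arrays that have it, and differed from fed by -0.04, -0.12 and -0.06. The other (feature 6750) read -0.23, 0.01 and -0.34 on the fed arrays, -0.40, 0.87 and -0.92 at 12 h, -1.03, -1.06 and -0.04 at 24 h, and -0.60, -1.19 and -1.02 at 72 h. Its 72 h arrays lay below every fed array, and at 12 and 24 h the low-signal array was the high value. The difference was 0.03 ± 0.42 (SE), -0.52 ± 0.42 and -0.75 ± 0.42, with 95% intervals that all took in 0. With these arrays left out, the probe was lower at 24 h by 1.81-fold (limma adjusted p = 0.025), and at 72 h its adjusted p was 0.0794. Array weights called it lower at 12, 24 and 72 h, by 1.45-fold, 1.92-fold and 1.95-fold (limma adjusted p = 0.0341, 0.00282 and 0.00496). The 4 probes of Ccnd2 differed from fed by -0.54 to 0.26 at 12 h and -0.11 to 0.13 at 24 h. At 72 h they differed by -0.35 to -0.14. Without the low-signal arrays all 4 lay between -0.35 and -0.07 at every time, and none was called in that fit. Other fits called some of these probes, in opposite directions. With the day as a block, feature 1696 was called lower by 2.71-fold at both 12 and 24 h. Feature 5704 was called higher in that fit, by 2.64-fold at 12 h and 2.37-fold at 24 h. Array weights called feature 5704 lower at 72 h, by 1.41-fold (limma adjusted p = 0.0458).

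Of the cyclins of S phase and mitosis, Ccnb2, a partner of Cdk1, was higher at 12 and 24 h and back at the fed level at 72 h. Its fed arrays read -0.16, -0.03 and -0.03, its 12 h arrays 0.65, 0.32 and 0.34, its 24 h arrays 0.52, 0.32 and 0.28, and its 72 h arrays -0.16, -0.02 and 0.03. No array of the 12 and 24 h groups overlapped with a fed or a 72 h array, and this includes both low-signal arrays. The difference from fed was 0.51 ± 0.15 (SE) at 12 h, 0.44 ± 0.15 at 24 h and 0.02 ± 0.15 at 72 h, with 95% intervals of 0.18 to 0.83, 0.12 to 0.77 and -0.30 to 0.35 (limma adjusted p = 0.956, 1 and 1). It kept its direction with the day as a block, at 0.49 and 0.42, and without the low-signal arrays it rose 1.48-fold at 12 h and 1.4-fold at 24 h (limma adjusted p = 0.0441 and 0.0363). From 24 to 72 h it differed by -0.42 ± 0.15 (SE, limma adjusted p = 1). The size depended on the treatment of the background, from 0.23 with no background correction to 1.09 with the scanner's own log ratio at 12 h.

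Ccna2, the cyclin of S phase and G2, was lower on the fasted arrays. The fed arrays read 0.05, 0.03 and 0.07, those at 12 h -0.17, -1.38 and -0.14, those at 24 h -1.59, -0.38 and -0.37, and those at 72 h -0.01, -0.07 and -0.06. Every fasted array lay below every fed one, by a small margin at 72 h and a wide one on single arrays at 12 and 24 h. The difference at 24 h was -0.83 ± 0.37 (SE), with a 95% interval of -1.64 to -0.02 (limma adjusted p = 1), and it was -0.43 without replicate 1 of that group. Ccna2 fell at 24 h without the low-signal arrays by 2.05-fold (limma adjusted p = 0.0319), of which the same replicate 1 carries most. From the sample channel alone, without the reference, the 24 h difference was -0.12. Ccne1 and Ccne2, which start S phase, and Ccnf differed from fed by -0.18 to 0.06 over all times.

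G-type cyclins are not needed for the cycle itself, and cyclin G2 is known from cells that stop dividing. The 3 probes of this group were higher than fed at 12 and 24 h in both fits, with none called over all arrays. Ccng (feature 6674) read 0.17, 0.13 and -0.12 on the fed arrays, 0.60, 1.15 and 0.54 at 12 h, 0.66, 1.01 and -0.82 at 24 h, and -0.01, 0.22 and 0.24 at 72 h. Its 12 h arrays lay above every fed array, and at 24 h the low-signal array alone lay below them. Its difference at 24 h was 0.23 ± 0.39 (SE) over all arrays and, without the low-signal arrays, a rise of 1.71-fold (limma adjusted p = 0.0137), followed by a fall of 1.61-fold from 24 to 72 h (adjusted p = 0.0482). The other Ccng probe (feature 15625) rose 1.41-fold at 24 h in that fit (adjusted p = 0.0416). Ccng2 read 0.28 and -0.09 on 2 fed arrays, 0.21, 0.27 and 0.48 at 12 h, 0.35, 0.39 and 0.26 at 24 h, and 0.22, 0.14 and -0.15 at 72 h. It differed from fed by 0.23, 0.24 and -0.02, and its fed and fasted arrays overlapped.

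**Figure D4:**
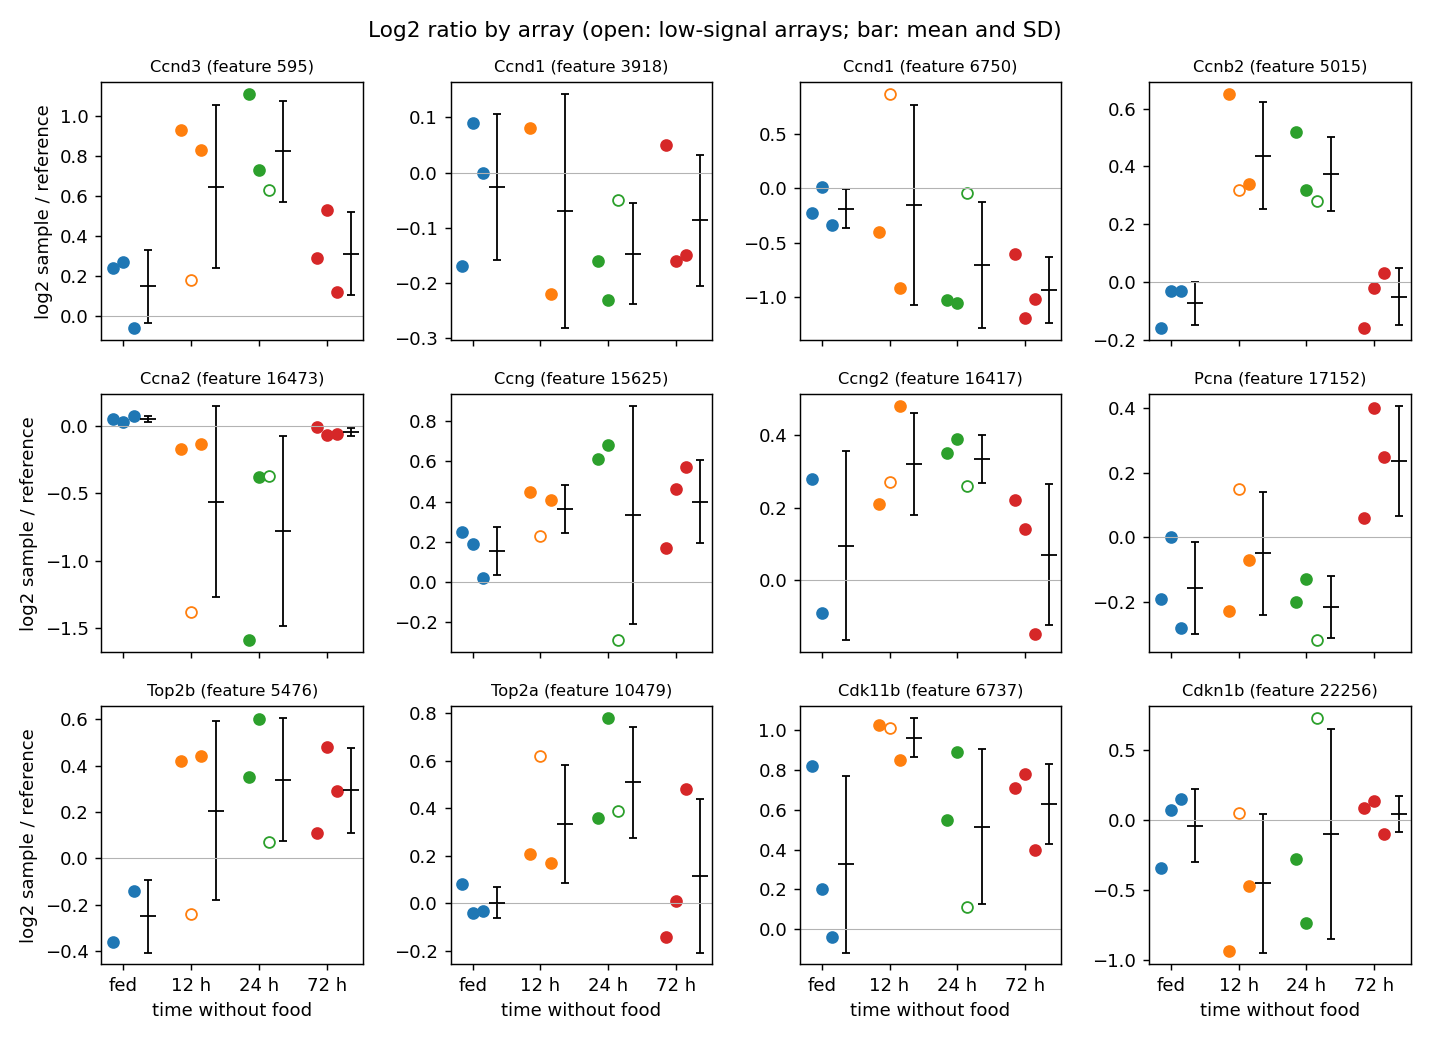
Log2 ratio of sample over reference (vertical axes, each with its own range) on the 3 arrays of each group (horizontal axis: fed and 12, 24 and 72 h without food) for 12 member probes; open circles are the low-signal arrays, and the black bar gives the group mean and SD. Ccnb2 is above fed on all 12 and 24 h arrays and at the fed level at 72 h, the 2 Ccnd1 probes differ from each other, and Pcna lies above every fed array on the 72 h arrays and on 1 low-signal array.

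The kinases that carry out these steps mostly lay slightly below fed at 12 and 24 h, with no call over all arrays. The 6 probes of Cdk1, Cdk2, Cdk4 and the phosphatases Cdc25a and Cdc25b, which remove the inhibiting phosphates from the kinases, had a median of -0.22, -0.21 and -0.07 at 12, 24 and 72 h. Cdk4 read -0.22, 0.08 and 0.06 on the fed arrays, -0.32 and -0.30 at 12 h, -0.34, -0.31 and -0.07 at 24 h, and 0.01, -0.16 and -0.23 at 72 h. It differed from fed by -0.29 ± 0.17 (SE), -0.21 ± 0.15 and -0.10 ± 0.15, with 95% intervals that all took in 0 (limma adjusted p = 0.956, 1 and 1). None of the 6 was called with or without the low-signal arrays. With the day as a block, Cdc25b was called higher at 12 h, by 2.11-fold (limma adjusted p = 0.029).

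Most inhibitors of these kinases also lay below fed at 12 and 24 h. Cdkn1b (p27), which keeps resting cells from entering S phase, read -0.34, 0.07 and 0.15 on the fed arrays, -0.94, 0.05 and -0.47 at 12 h, -0.28, -0.74 and 0.73 at 24 h, and 0.09, 0.14 and -0.10 at 72 h. The groups overlapped at each time, and the difference was -0.41 ± 0.35 (SE), -0.05 ± 0.35 and 0.09 ± 0.35. Without the low-signal arrays it was -0.66 at 12 h, with an adjusted p of 0.0865 in limma. With array weights it was called lower at 12 h, by 1.74-fold (limma adjusted p = 0.00384). Cdkn1c (p57) differed by -0.09, 0.03 and 0.00, and was called 1.53-fold higher at 24 h with the day as a block (adjusted p = 0.0471). Of the 6 inhibitor probes, which also cover Cdkn2b, Cdkn2c, Cdkn2d and Cdk2ap1, 5 were below fed at 12 h, 4 at 24 h and 2 at 72 h, and 0 were called over all arrays or without the low-signal ones. Array weights called Cdkn2d, an inhibitor of Cdk4 and Cdk6, lower at 24 h by 1.51-fold (limma adjusted p = 0.00473). The 2 probes of Rb1, the target of the D-type cyclins, differed from fed by -0.37 and 0.10 at 12 h and by -0.11 to -0.01 at 24 and 72 h. E2f3 and E2f5 had a value on only 1 fed array each, so that their differences rest on it.

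The genes of origin licensing and firing were centred on the fed level. The group holds 15 probes for the 6 MCM subunits of the replicative helicase, the 6 ORC subunits, Cdc6, which loads the helicase, Cdc45 and Cdc7. Its median log2 fold change was -0.02, 0.06 and 0.04, it extended from -0.39 to 0.69, -0.13 to 0.26 and -0.12 to 0.36, and 0 were called with or without the low-signal arrays. The MCM subunits Mcm2 to Mcm7 differed from fed at 24 h by 0.10, 0.05, 0.13, -0.13, 0.05 and 0.10 in that order, and at 72 h by 0.23, 0.03, -0.12, 0.01, 0.04 and 0.08. Mcm3 had the narrowest interval of the 6, from -0.24 to 0.35 at 24 h and from -0.27 to 0.32 at 72 h, and its 12 values lay between -0.32 and 0.16. The MCM subunits form 1 ring in equal numbers, and at 24 and 72 h each was within 0.23 of its fed mean. At 12 h they differed by -0.36, -0.19, 0.00, -0.33, 0.02 and 0.24 in the same order, and Mcm3 lay below every fed array there by a small margin. Alternative fits called 2 of them. Mcm5 was called at 12 h with the day as a block (1.84-fold lower, limma adjusted p = 0.0241), which rests on the low-signal array at -1.12. Mcm7 was called at 24 h with array weights (1.43-fold higher, adjusted p = 0.00589).

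The ORC subunits mark the origins. Orc1, Orc3 and Orc6 differed from fed by -0.12 to 0.22 at all times, and Orc5 by 0.21, 0.22 and 0.35. Array weights called Orc5 higher at 12 h, by 1.43-fold (limma adjusted p = 0.0487). Orc4 was above every fed array at 12 h, at 0.58, 1.46 and 0.40 against 0.17, 0.21 and -0.02, but read 0.34, 1.14 and -0.76 at 24 h. Orc2 read -0.24, 0.13 and 0.07 on the fed arrays and 0.20, 0.43 and 0.41 at 72 h, with no overlap. Its difference at 72 h was 0.36 ± 0.22 (SE), and from 24 to 72 h it was 0.49 ± 0.22 (limma adjusted p = 1 for both). The 15 probes of the 13 genes with an E2F word, of which 6 are licensing genes, had medians of -0.08, 0.03 and -0.05 and 0 calls with or without the low-signal arrays, and 7, 8 and 6 of them were above fed.

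At the replication fork, Pcna, the sliding clamp that holds the polymerases on DNA, lay above fed on the 72 h arrays. The fed arrays read -0.19, 0.00 and -0.28, those at 12 h -0.23, 0.15 and -0.07, those at 24 h -0.20, -0.13 and -0.32, and those at 72 h 0.06, 0.40 and 0.25. All 72 h arrays lay above all fed and all 24 h arrays. The difference was 0.39 ± 0.16 (SE) against fed and 0.45 ± 0.16 against 24 h (95% intervals 0.04 to 0.74 and 0.10 to 0.80, limma adjusted p = 1 for both). It was 0.38 against the 2 fed arrays quantified on the same day and -0.01 from the sample channel alone. Of 68 members with a value on all fed and 72 h arrays, 5 lay above and 5 below every fed array (7.35% each), where 9.2% and 9.66% of all such probes did. At 12 h 5 and 5 of 65 did (7.69% each), beside 6.45% and 6.2% of all, and at 24 h 5 and 3 of 70 (7.14% and 4.29%), beside 6.66% and 4.77%.

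Top2a and Top2b untangle DNA strands, and Top2b also serves resting cells. Top2b and 1 of the 3 probes of Top2a read above fed at 24 h, and neither was called over all arrays. Top2b read -0.36 and -0.14 on 2 fed arrays, 0.42, -0.24 and 0.44 at 12 h, 0.35, 0.60 and 0.07 at 24 h, and 0.11, 0.48 and 0.29 at 72 h. Only the 12 h low-signal array fell among the fed values. The difference was 0.46, 0.59 and 0.54 ± 0.25 (SE), with 95% intervals of -0.10 to 1.02, 0.03 to 1.15 and -0.02 to 1.11, and Top2b rose 1.65-fold at 24 h without the low-signal arrays (adjusted p = 0.0227). Top2a (feature 10479) read 0.08, -0.04 and -0.03 on the fed arrays, 0.21, 0.62 and 0.17 at 12 h, 0.36, 0.78 and 0.39 at 24 h, and -0.14, 0.01 and 0.48 at 72 h. All 12 and 24 h arrays were above the fed ones, and the 24 h difference was 0.50 ± 0.20 (SE, limma adjusted p = 1, and adjusted p = 0.0673 without the low-signal arrays). The 2 other Top2a probes did not follow it, with -0.13 and -0.09 at 24 h.

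Ribonucleotide reductase makes the building blocks of DNA, with Rrm1 as its large and Rrm2 as its small subunit. The 2 Rrm1 probes differed from fed by -0.35 and 0.16 at 12 h, -0.15 and -0.06 at 24 h, and -0.21 and -0.32 at 72 h. The 2 Rrm2 probes went apart, with -0.35 and 0.20 at 24 h and -0.22 and 0.19 at 72 h. None of these had a p under 0.05 before adjustment. Of the replication polymerases, Pold2, a small subunit of polymerase delta, read 0.11 and 0.18 on 2 fed arrays and -0.19, -0.14 and -0.57 at 24 h, a difference of -0.44 ± 0.18 (SE, limma adjusted p = 1) that was -0.31 without the low-signal arrays. Pola1 (feature 3614), the catalytic subunit of the polymerase that starts each strand, is described in the files as unspliced. Averaged over all fasted arrays without the low-signal ones it was lower by 1.49-fold (limma adjusted p = 0.0444), whereas on those 2 arrays it read 1.34 and 0.77. The 2 probes for this gene disagreed, since feature 1944 lay between -0.21 and 0.57 on all arrays but 1. With the day as a block, Pola2 was called higher, by 3.98-fold at 12 h and 3.3-fold at 24 h. That block takes these differences from the low-signal arrays against fed replicate 1. Array weights called Rfc5 lower at 24 h, by 2.55-fold (limma adjusted p = 0.00191).

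The spindle and checkpoint genes gave 9 probes with medians of 0.04, -0.14 and -0.09. Cdc20, the activator of the ligase that ends mitosis, read -0.05, 0.04 and 0.02 on the fed arrays, -0.22 and -0.12 at 12 h, -0.35, -0.64 and -0.01 at 24 h, and -0.07, -0.17 and -0.12 at 72 h. Mad2l1, which holds that activator back, read -0.31, -0.10 and -0.24 on the fed arrays, -0.82, 1.39 and -0.52 at 12 h, -0.79, -0.84 and 0.86 at 24 h, and -0.30, -0.53 and -0.61 at 72 h. In both, the low-signal array was the highest of its group where it had a value. Without these arrays Cdc20 fell at 24 h by 1.41-fold and Mad2l1 by 1.51-fold (limma adjusted p = 0.025 and 0.0235), and over all arrays their differences were -0.33 ± 0.17 (SE) and -0.04 ± 0.56. Bub1, Bub1b, Bub3, Chek1, Mad1l1, Plk1 and the ligase subunit Cdc16 were called in neither fit.

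Several cyclins and kinases of the list serve transcription. Cdk11b, a kinase of transcription and splicing, read 0.82, 0.20 and -0.04 on the fed arrays, 1.03, 1.01 and 0.85 at 12 h, 0.55, 0.89 and 0.11 at 24 h, and 0.71, 0.78 and 0.40 at 72 h. The 12 h arrays lay just above the highest fed array, and the difference was 0.63 ± 0.25 (SE, limma adjusted p = 0.956, and adjusted p = 0.147 without the low-signal arrays). With the day as a block it was -0.04. Array weights called Cdk11b higher at 12 h, by 1.69-fold (limma adjusted p = 0.00396). Ccnc of the mediator complex (feature 9593), Ccnh of the complex that activates Cdk1 and Cdk2 (feature 3891) and Ccnt2 (feature 231), whose probes the files describe as cyclin T1, rose at 24 h without the low-signal arrays by 1.44-fold, 1.44-fold and 1.48-fold (limma adjusted p = 0.0227, 0.0497 and 0.0428). Their other probes were not called in that fit. With the day as a block, Ccnt2 (feature 15362) was called lower, by 1.59-fold at 12 h and 1.63-fold at 24 h. That block also called Ccnc (feature 19208) higher at 12 h, by 1.53-fold, and Ccnh (feature 3891) lower, by 1.71-fold. In this group 8 of 11 probes were above fed at 24 h over all arrays, and the median was 0.17.

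A further 11 probes for 8 genes matched by spelling alone, such as effectors of Cdc42, the chaperone partner Cdc37 and the splicing factor Cdc5l, and none of these was called over all arrays. Cdc5l (feature 11787) was much lower on the low-signal arrays than on the other arrays of their groups, and the cause was not tested. It read 0.05, 0.16 and -0.08 on the fed arrays, 0.71, -2.05 and 0.57 at 12 h, 0.68, 0.74 and -0.82 at 24 h, and -0.07, 0.27 and 0.16 at 72 h. The difference was -0.30 ± 0.64 (SE) and 0.16 ± 0.64 at 12 and 24 h over all arrays, and a rise of 1.51-fold and 1.58-fold without the 2 arrays (limma adjusted p = 0.0386 and 0.015).

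Averaged over all fasted groups, 0 members were called, where 0.00996% of all probes were, and 3 (3.03%, beside 2.53% of all probes) had an unadjusted p under 0.05 in limma, which were Top2b at 0.53 ± 0.22 (SE), Ccnd3 at 0.45 ± 0.18 and Ccnb2 at 0.33 ± 0.12. Without the low-signal arrays 4 were called in this average, where 5.74% of all probes were. They were Ccnd3 (1.47-fold) and Top2b (1.57-fold), which were higher, and Ccnd1 (feature 6750, 1.62-fold) and Pola1 (feature 3614), which were lower. The day block called 7 members here (9.13% of all probes) and array weights also 7 (7.44%). Between successive times 0 members were called, where 0% of all probes were. Without the low-signal arrays 1 member (Ccng) was called from 24 to 72 h, where 1.3% of all probes were, with the day block 7 (10.6%), and with array weights 5 (4.26%), beside 2 from 12 to 24 h (0.9%). From 12 to 24 h no member reached an unadjusted p of 0.05, whereas 0.945% of all probes did. From 24 to 72 h 5 members did, or 5.05% beside 3.42% of all probes. In these Ccnd3, Ccnb2 and 1 probe of Ccnt2 were lower and Pcna and Orc2 higher at 72 h. The spread between arrays of a group, as the median SD of the members, was 0.12 in fed, 0.31 at 12 h, 0.28 at 24 h and 0.12 at 72 h.

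Several probes were available for 16 of the genes. Their probes had the same sign in 10 genes at 12 h, 9 at 24 h and 10 at 72 h over all arrays, and in 12, 9 and 10 without the low-signal arrays. In 12 h data, for instance, Ccnd2 extended from -0.54 to 0.26 over its 4 probes.

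Other genes of the pathway, from a list of 67 that includes the proliferation marker Mki67, mitotic kinesins, condensins and the enzymes of thymidine synthesis, had 73 probes for 53 genes. None of these probes was called at any time over all arrays, with medians of -0.02, -0.02 and -0.08. Of them 2, 1 and 0 had an unadjusted p under 0.05 in limma, as did 3.92%, 3.04% and 1.55% of all probes. In the fit to the other 10 arrays, 0 were called higher and 2 lower at 12 h, 5 higher and 4 lower at 24 h, and 1 higher and 0 lower at 72 h. In that fit 2.59%, 8.81% and 0.836% of all probes were called. The mean log2 ratio of the 73 probes lay between -0.09 and 0.01 on all 12 arrays.

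Cells that can divide in liver include macrophages and leukocytes. The mean of their markers was lower on every fasted array than on any fed array, although not every marker was lower. Of 20 such markers 8 genes had 10 probes, each well above background on every array of at least 1 group. Their medians were -0.39, -0.33 and -0.09 at 12, 24 and 72 h, with 0 calls over all arrays. Of the 10 probes 6 were lower at 12 h and 8 at 24 and at 72 h. The lowest values at 12 h were those of H2-Ab1 (-1.22), Cd74 (-1.11) and the 2 Lyz2 probes (-0.71 and -0.92). At 72 h these probes differed by -0.93, -1.35, -0.36 and -0.79 in that order, and the others lay between -0.15 and 0.04. Ptprc, the pan-leukocyte marker CD45, differed by 0.12, 0.21 and 0.04 at 12, 24 and 72 h. Without the low-signal arrays the medians were -0.17, -0.30 and -0.09, and H2-Ab1 alone was called, lower at 12 and 24 h (limma adjusted p = 0.0257 and 0.0121). Cd74 and the 2 Lyz2 probes read -2.51, -1.44 and -2.18 on the 12 h low-signal array, where H2-Ab1 had no value. Without the low-signal arrays their differences at 12 h were only -0.36, -0.21 and -0.11. The mean log2 ratio of these 10 probes was -0.06 to 0.18 on the fed arrays, -0.63 to -0.13 at 12 h, -0.40 to -0.25 at 24 h, and -0.35 to -0.22 at 72 h, and its part in the values of Ccna2, Cdc20 and Mad2l1 was not tested. Markers of endothelial and stellate cells (6 probes) had medians of 0.02, 0.03 and -0.24, those of erythroid cells (4 probes) -0.01, 0.04 and 0.12, and those of bile duct cells (3 probes) -0.05, -0.13 and -0.10. The hepatocyte markers with a probe, 3 of 10 genes, passed the same filter and had medians of 0.37, -0.19 and 0.15. Among them Ttr, a plasma carrier protein, differed by -0.56, -0.77 and -1.35 (limma adjusted p = 0.956, 1 and 0.784), and was called lower at 72 h without the low-signal arrays (adjusted p = 0.0418).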

How the data were processed

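RNA of 12 liver pools was hybridized against a common reference on two-colour Agilent arrays. Per the file headers, the authors deposited the scanner software's spot and background median intensities, with outlier flags, and its dye-normalized log10 ratio of red over green. A deposited value table holds the same log10 ratios with the sign turned to sample over reference (largest difference 4.98e-08), with column medians between -0.00278 and 0.00601 on the log10 scale. No column belongs to another series (0 in number).

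Of 21446 spots per array, 1075 control and 91 retired spots were left out, and 20280 probes were kept. The median intensities were corrected by normexp (offset 50), brought to a common distribution by quantile normalization of all 24 channels, and the log2 ratio of sample (Cy3) to reference (Cy5) was taken. Spots marked as outliers (up to 24.7% of an array) were treated as missing. A probe was tested if it was well above background on every array of at least 1 group, which held for 20116 probes. The 4 groups of 3 arrays were fitted with limma 3.58.1 in R 4.3.3, with adjustment over all tested probes. The study's split-factor program was not at hand, so limma takes its place with the same 1.4-fold minimum. Dyes were not swapped, and dye bias drops out only in differences between groups. The fit was tested on simulated data with the same spread on every array. That test does not cover the low-signal arrays or the quantification day. The number of arrays limits the precision, and nothing tells whether the mice of a group were raised apart.

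The values of 1 further member probe are not reported here, though it is counted. Gene names are those of the array's design, updated through a RefSeq gene table. Promoter sequences came from RefSeq (GRCm38.p6). The members, the gene lists, the 2 low-signal arrays and the alternatives were chosen with earlier results of these data known. Named are probes called with all arrays, the 3 highest and 3 lowest at each time among those with an unadjusted p under 0.05, and a set of cyclins, inhibitors, MCM, ORC and replication genes whatever their values. Probes called without the low-signal arrays were named after their values were seen. Of the probes called only with array weights or the day block, some are named and others are not. For a gene with several probes the brighter one on the fed arrays comes first. The alternatives were other normalizations, the sample channel alone, no background correction, outlier spots kept, no filter, array weights, quantification day or replicate number as a block, and leaving out arrays.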

Additional observations from a re-analysis of the deposited data

How the results depend on the processing

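With all 12 arrays, and with any 1 array left out, 0 members were called in all 6 comparisons (0 to 0 with an array left out), and also with loess, the scanner's log ratio, the sample channel alone, no background correction, outlier spots kept, no filter on dim probes or 72 h against same-day fed arrays. With 1 array left out, the members at an unadjusted p under 0.05 in limma numbered 1 to 7 at 12 h, 1 to 15 at 24 h, 0 to 5 at 72 h and 1 to 9 over all fasted groups (with all arrays 2, 6, 1 and 3), the most at 24 h and over all fasted groups without replicate 3 of the 24 h group, the low-signal array. The highest counts were 7.07%, 15.2%, 5.05% and 9.09% of the members, beside 8.06%, 8.02%, 4.21% and 5.72% of all probes in the same fits. With 1 array left out, the median log2 fold change of the members was -0.0424 to -0.000604, -0.0309 to 0.0381, -0.0367 to 0.0177 and -0.0619 to 0.00484.

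Without both low-signal arrays, 3 members were called at 12 h, 13 at 24 h, 4 over all fasted groups and 1 from 24 to 72 h, and 19, 34, 11 and 30 had an unadjusted p under 0.05 at 12, 24, 72 h and over all fasted groups (21.9%, 30.4%, 13.3% and 27.3% of all probes did). With array weights the calls were 11, 14, 3 and 7, with 2 from 12 to 24 h and 5 from 24 to 72 h, the unadjusted counts 37, 40, 26 and 42 (37.4%, 40.4%, 26.3% and 42.4%, beside 36.3%, 36.8%, 21.3% and 39.7% of all probes), and the medians -0.0293 at 24 h and -0.0559 at 72 h. The weights ran from 0.0368 on the 12 h low-signal array to 7.15 on fed replicate 2, of which 24.7% of spots are missing. With the quantification day as a block 16, 10 and 7 were called at 12 h, 24 h and over all fasted groups, and 7 from 24 to 72 h, with unadjusted counts of 38, 27, 6 and 29 (38.4%, 27.3%, 6.06% and 29.3%, beside 38.7%, 31.4%, 6.26% and 29.5% of all probes) and medians of 0.0897 and 0.0978 at 12 and 24 h and 0.0443 over all fasted groups. Loess gave 1, 3 and 4 at an unadjusted p under 0.05 at 12, 24 and 72 h and 1 over all fasted groups (1.01%, 3.03%, 4.04% and 1.01%, beside 4.63%, 3.62%, 4.24% and 3.97% of all probes). The sample channel alone gave 4 and 3 at 12 and 24 h and 1 over all fasted groups (4.04%, 3.03% and 1.01%, beside 6.16%, 5.3% and 3.82% of all probes), with a median of 0.0763 at 12 h. The scanner's log ratio gave 2 at 72 h and 1 over all fasted groups (2.02% and 1.01%, beside 2.01% and 3.16% of all probes), with a median of -0.04 at 24 h. No background correction gave 2 at 72 h (2.02%, beside 1.5% of all probes), and same-day fed arrays gave 13 at 72 h (13.4%, beside 12.7% of all probes). Beyond the settings' own construction, the cause was not tested.

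Some probes turned direction where an alternative called them. At 12 h, array weights gave -0.79 for Pola1 (feature 3614), -0.54 for Ccnd1 (feature 6750), -0.55 for Mad2l1 and 0.52 for Cdc5l (feature 11787), which was 0.60 without the low-signal arrays, and the day block gave -0.77 for Ccnh (feature 3891). At 24 h the day block gave 1.4 for Pola1, 1.3 for Mad2l1 and -1.25 for Cdc5l, and over all fasted groups 0.86 for Mad2l1. Of the remaining single-probe values under these settings, 3638 stayed within the spread between replicates, 331 moved past it and 78 were called in the same direction.

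Of 18 same-numbered pairs of arrays across groups, 5 deviated together (r over 0.1), and r ran from -0.59 to 0.59. These deviations are from means of 3 arrays that include the low-signal ones. They therefore cannot tell whether the replicate numbers pair the arrays. With the replicate block 0 members were called at 12, 24 and 72 h, over all fasted groups and between successive times. In that fit 2, 4, 1 and 3 had an unadjusted p under 0.05 against fed (2.02%, 4.04%, 1.01% and 3.03%, beside 3.66%, 2.54%, 1.38% and 2.14% of all probes). The low-signal arrays had the weakest sample signal over background, and 8 and 12 member probes on them were not well above background, against 0 to 4 on the other arrays.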
